A study of Mus musculus with 4 samples.

Results

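Retinoic acid, the active form of vitamin A, is made inside cells and acts by binding nuclear receptors that switch genes on or off. Retinol enters cells through the receptor STRA6, is oxidised to retinaldehyde, and is then turned irreversibly into retinoic acid by the retinaldehyde dehydrogenases of the ALDH1A family. The binding proteins CRABP1 and CRABP2 carry the acid through the cytoplasm, and the receptors RARA and RARB bind DNA as partners of retinoid X receptors such as RXRA. In the brain, ALDH1A2 is best known from the meninges, the membranes that wrap the tissue, and ALDH1A1 also marks a set of midbrain dopamine neurons.

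The 9 genes described here, Aldh1a1, Aldh1a2, Aldh1a3, Stra6, Crabp1, Crabp2, Rara, Rarb and Rxra, were taken by symbol from a table of 24015 genes counted in adult mouse cerebellum, and all 9 were found and passed the filter on low counts. The series compared mice heterozygous for an Arid1b knockout (HT) with wild type littermates (WT), all of the C57BL/6N strain and 140 to 150 days old. ARID1B is a large subunit of BAF, a complex that moves nucleosomes along DNA. There were 4 messenger RNA libraries, 1 male and 1 female of each genotype, so n = 2 per genotype. Neither the knockout allele nor the animals behind each library are named in the labels. The 2 libraries of a genotype differ in sex, so they come from different animals. The spread behind a p-value thus mixes animal and technical differences, which cannot be told apart here. With sex and genotype as terms, that spread is the disagreement between the male and female ratios, moderated by the spread of other genes.

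The libraries held 15950899 to 20616219 counts, and levels are given as CPM, the count divided by the library total in units of 1e+06. A gene with no count could be as high as 0.146 to 0.188 CPM, by a floor of 3 counts that covers counting error only. Arid1b itself stood at 52.9 and 55.8 CPM in the male and female HT and at 69.9 and 71.0 CPM in the male and female WT, with a log2 fold change of -0.37 ± 0.11 (SE; edgeR quasi-likelihood test, adjusted p = 0.243). The female WT library stood farther from the others (root mean square distance 0.48 to 0.536 on the log2 scale) than they stood from each other (0.365 to 0.384). As markers of the labelled tissue, Gabra6, a GABA-A receptor subunit of granule cells, was at 329 and 369 CPM in HT and 496 and 502 CPM in WT, and Pcp2, a Purkinje cell protein, was at 144 and 132 CPM in HT and 138 and 209 CPM in WT. In these bulk samples fewer cells of a type and less RNA per cell cannot be told apart.

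Between the genotypes, no retinoid gene passed an adjusted p of 0.05. Aldh1a2 was higher in both HT libraries than in both WT libraries, at 1.76 times the WT level. Aldh1a3 was lower in both, at 0.474 times, and Rxra was higher in both, at 1.25 times. Those 3 genes had an unadjusted p under 0.05. The other 6, among them the receptors Rara and Rarb and the most abundant enzyme Aldh1a1, differed by less than their standard errors. Over all 15117 tested genes, 0.0198% were called at an adjusted p of 0.05 and 11.7% had an unadjusted p under 0.05, against 33.3% of these 9 genes. The HT and WT values did not overlap in 4 of the 9 genes, or 44.4%, which is near the 44.7% of all tested genes.

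**Figure D1:**
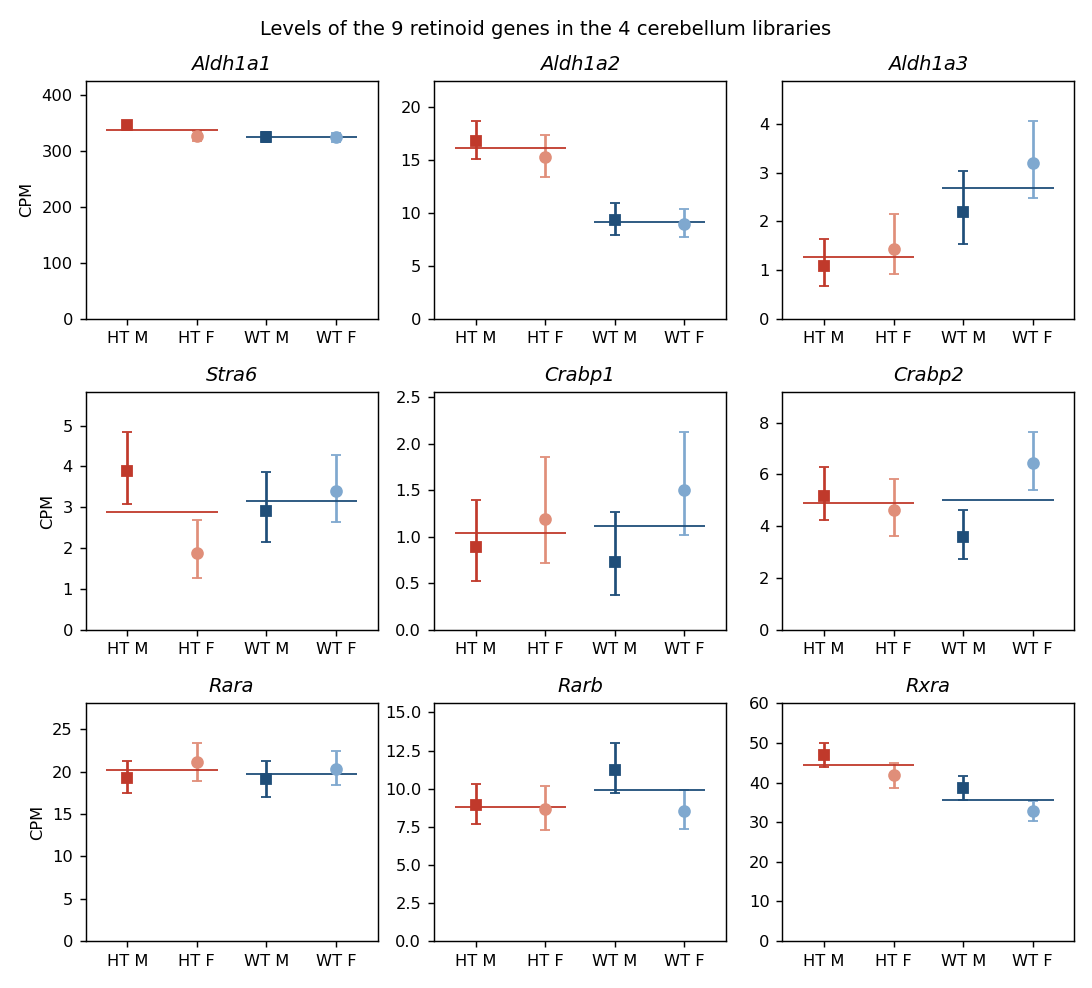
CPM of each retinoid gene (vertical axes start at 0 and differ between panels) in the HT male, HT female, WT male and WT female library. Points are single libraries, bars are exact Poisson 95% intervals that cover counting error only, and horizontal lines are the means of the 2 libraries of a genotype. Aldh1a2 lies at 16.8 and 15.3 CPM in HT and 9.3 and 8.97 CPM in WT, while Aldh1a1 lies between 324 and 346 CPM in all 4 libraries.

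Per kilobase of annotated exon, Aldh1a1 stood far above the other 8 genes, at a mean of 138 CPM per kb over the 4 libraries (range 135 to 145). Rxra followed at 7.84 CPM per kb (6.42 to 9.19), then Aldh1a2 at 5.56 (3.96 to 7.42), Crabp2 at 5.33 (3.85 to 6.93) and Rara at 4.66 (4.46 to 4.92). The ranges of these 4 genes overlapped, except that every Rxra value lay above every Rara value. Rarb was lower at 2.75 CPM per kb (2.52 to 3.31), followed by Crabp1 at 1.34 (0.909 to 1.87), Stra6 at 0.83 (0.517 to 1.07) and Aldh1a3 at 0.446 (0.245 to 0.722). Crabp1 overlapped Stra6, and Stra6 overlapped Aldh1a3, so their order was not fixed within the spread. Exon lengths came from the GRCm38 annotation, whereas the counts were made on mm9.

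The retinaldehyde dehydrogenases showed the clearest contrast among the 9 genes. Aldh1a1, on chromosome 19, had 346 CPM in the male HT and 327 CPM in the female HT, against 324 CPM in each WT library. Its mean was 337 ± 13.8 CPM in HT and 324 ± 0.571 CPM in WT (SD, n = 2 each). The HT values lay above the WT values by a small margin, and the log2 fold change of 0.06 ± 0.10 (SE) did not pass the test (edgeR quasi-likelihood test, adjusted p = 0.885). Its counts of 5213 to 7025 per library gave it the narrowest error of the 9 genes.

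Aldh1a2, on chromosome 9, had 16.8 CPM in the male HT and 15.3 CPM in the female HT, against 9.3 CPM in the male WT and 8.97 CPM in the female WT. The groups did not overlap, and each pair of libraries lay close together. The mean was 16.1 ± 1.07 CPM in HT and 9.14 ± 0.23 CPM in WT (SD, n = 2 each), from 153 to 341 counts per library. The log2 fold change was 0.81 ± 0.19 (SE), with an unadjusted p of 0.00114, rank 108 among the tested genes, and an adjusted p of 0.158 (edgeR quasi-likelihood test). The log2 ratio was 0.85 between the males and 0.76 between the females. Without any one library the log2 fold change lay between 0.75 and 0.87. The edgeR adjusted p was 0.000315 without the male WT (2730 genes called over the whole table), 0.00348 without the female WT (658 genes called), 1 without the male HT and 0.949 without the female HT. With 3 libraries the lone one is assumed to vary like the pair of the other genotype.

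Aldh1a3, on chromosome 7, went the other way at a much lower level. It had 1.08 CPM in the male HT and 1.44 CPM in the female HT, against 2.19 CPM in the male WT and 3.2 CPM in the female WT. All HT values lay below all WT values, but the values rest on 22 and 23 counts in HT and 36 and 66 counts in WT. The 95% counting intervals overlapped between the female HT (0.914 to 2.16 CPM) and the male WT (1.53 to 3.03 CPM). The log2 fold change was -1.08 ± 0.38 (SE; unadjusted p = 0.0158, adjusted p = 0.307 in edgeR's quasi-likelihood test), with ratios of -0.94 in males and -1.09 in females. Without the male WT it was -1.35 and passed (edgeR, adjusted p = 0.0103), in a fit that called 2730 genes over the whole table. It was -0.90 without the male HT (adjusted p = 1), -1.32 without the female HT (adjusted p = 0.949) and -0.80 without the female WT (adjusted p = 0.412), all from edgeR.

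Within the family, the make-up per kilobase differed between the genotypes. Aldh1a2 made up 4.88% and 4.71% of the summed CPM per kb of the 3 dehydrogenases in the male and female HT, against 2.93% and 2.83% in the male and female WT. Aldh1a3 made up 0.161% and 0.227% in HT, against 0.352% and 0.516% in WT. Aldh1a1 made up the rest. These shares follow from the levels above and were not tested apart from them. No stretch of 100 bases, the read length, was shared between the annotated transcripts of Aldh1a1, Aldh1a2 and Aldh1a3, and the longest shared run was 26 bases. Aldh1a1 shared 1 window of 100 bases with Aldh1a7, a close paralog whose mean was 1.13 CPM.

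**Figure D2:**
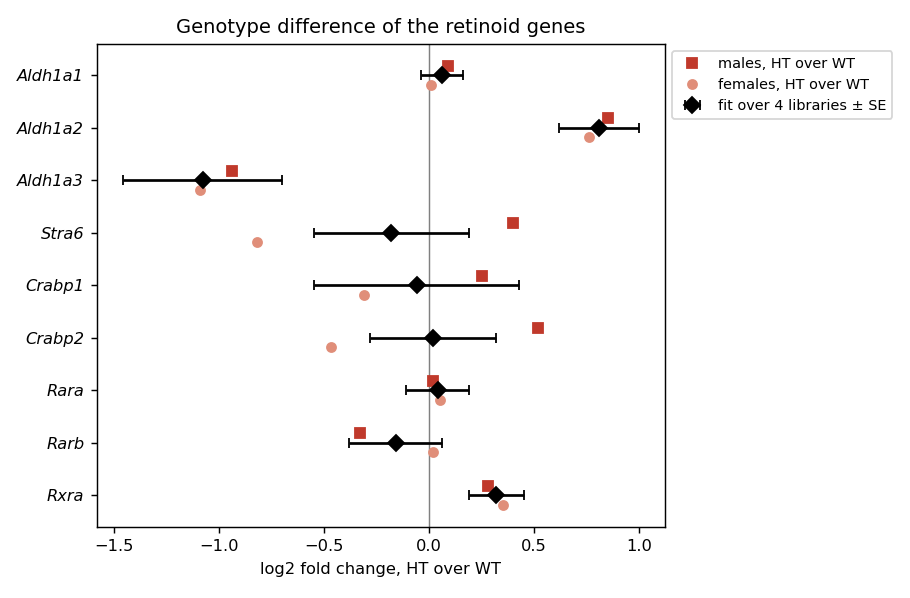
Log2 fold change of HT over WT for each retinoid gene (horizontal axis). Diamonds with bars are the edgeR estimate over 4 libraries ± SE, squares the male and circles the female ratio of single libraries. Aldh1a2, Aldh1a3 and Rxra lie on the same side in both sexes and away from 0, whereas Stra6, Crabp1, Crabp2 and, by a small margin, Rarb lie on opposite sides in males and females.

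Stra6, the cell-surface receptor that takes up retinol from its plasma carrier, varied within each genotype. It had 3.89 CPM in the male HT and 1.88 CPM in the female HT, against 2.92 CPM in the male WT and 3.4 CPM in the female WT. The HT pair spanned the WT pair, and the log2 fold change was -0.18 ± 0.37 (SE; edgeR quasi-likelihood test, adjusted p = 0.898). Its direction turned without the female HT (0.29) and without the female WT (0.01).

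The cytoplasmic carriers also overlapped between the genotypes. Crabp2, which delivers retinoic acid to receptors in the nucleus, had 5.18 CPM in the male HT and 4.64 CPM in the female HT, against 3.59 CPM in the male WT and 6.45 CPM in the female WT. The WT pair enclosed the HT pair, and the log2 fold change was 0.02 ± 0.30 (SE; edgeR quasi-likelihood test, adjusted p = 0.991). It was -0.39 without the male WT, -0.12 without the male HT, 0.03 without the female HT and 0.45 without the female WT. Crabp1, linked to retinoic acid turnover in the cytoplasm, had 0.887 and 1.19 CPM in the male and female HT and 0.729 and 1.5 CPM in the male and female WT. At 12 to 31 counts per library its counting intervals all overlapped, so a difference was not detectable at this depth (log2 fold change -0.06 ± 0.49, SE; 0.08 without the male HT and 0.49 without the female WT). Per kilobase, Crabp2 exceeded Crabp1 by 5.03 and 3.36 times in HT and 4.24 and 3.7 times in WT.

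Among the receptors, Rara showed the steadiest level. It had 19.3 CPM in the male HT and 21.1 CPM in the female HT, against 19.1 CPM in the male WT and 20.3 CPM in the female WT. The pairs overlapped, and the log2 fold change was 0.04 ± 0.15 (SE; edgeR quasi-likelihood test, adjusted p = 0.954), with -0.04 without the female HT and -0.01 without the male WT.

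Rxra, the partner with which retinoic acid and several other nuclear receptors bind DNA, was higher in HT. It had 46.9 CPM in the male HT and 41.8 CPM in the female HT, against 38.6 CPM in the male WT and 32.8 CPM in the female WT. The groups did not overlap, with means of 44.3 ± 3.66 CPM in HT and 35.7 ± 4.1 CPM in WT (SD, n = 2 each). The log2 fold change was 0.32 ± 0.13 (SE; unadjusted p = 0.0309, adjusted p = 0.373 in edgeR's quasi-likelihood test), and the ratio was 0.28 in males and 0.35 in females. Without the male WT it was 0.44 and passed in the same fit of 2730 calls (edgeR, adjusted p = 0.00259). It was 0.23 without the male HT (adjusted p = 1), 0.39 without the female HT (adjusted p = 0.949) and 0.20 without the female WT (adjusted p = 0.369), all from edgeR. Per kilobase, Rxra stood at 2.04 and 1.66 times Rara in the male and female HT and at 1.7 and 1.35 times in the male and female WT.

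Rarb is both a receptor and a textbook target of the pathway, because its promoter holds a retinoic acid response element, a direct repeat of receptor half-sites. It is shown here because the level of a gene with such an element was measured beside the enzymes. The RefSeq start used lies inside the gene as annotated on GRCm38 (chr14:16430839-16819156), and the counts are per gene, not per start. The 150 bases before this start on chromosome 14 (RefSeq, GRCm38.p6, chr14:16575477-16575626, minus strand) read, 5′ to 3′, with only the 2 half-sites of the repeat in capitals:
Rarb promoter: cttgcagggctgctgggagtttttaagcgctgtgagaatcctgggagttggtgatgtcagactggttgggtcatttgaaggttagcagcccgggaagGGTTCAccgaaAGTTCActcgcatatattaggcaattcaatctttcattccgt
The search took 2 half-sites in the same direction with 1, 2 or 5 bases between. A half-site was the textbook AGGTCA, the form GGGTCA that starts with another base, or the forms found in Rarb, which are AGTTCA in the copy nearer to the gene and GGTTCA in the other. Both strands were read in RefSeq windows of 250 bases before to 50 after a start. The Rarb repeat has a spacer of 5 bases and runs from base 53 to base 37 before the start. Such a repeat with a spacer of 5 stood in 0.0974% of 32851 promoter windows, and any of the 3 spacings in 0.588%. Windows were at hand for 7 of the 9 genes, and Rarb was the 1 gene among them with a match. That match was fixed in advance, because the search included the half-sites and spacing of Rarb itself. It describes these letters and no binding.

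Rarb had 8.92 CPM in the male HT and 8.65 CPM in the female HT, against 11.2 CPM in the male WT and 8.54 CPM in the female WT. The female WT lay below both HT libraries and the male WT above them. The log2 fold change was -0.16 ± 0.22 (SE; edgeR quasi-likelihood test, adjusted p = 0.837), and it turned to 0.04 without the male WT. In the GRCm38 annotation 52.9% of Rarb's exon bases also lie in exons of Top2b on the opposite strand, at a mean of 132 CPM. The library kit keeps strand, but whether the counting used it is not stated, so reads of the pair may be mixed and the level of Rarb is uncertain. No other retinoid gene shared exon bases with another gene in that annotation.

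Between females and males, none of the 9 genes passed (edgeR quasi-likelihood test, adjusted p = 0.994 for each), and none had an unadjusted p under 0.05, against 3.82% of all tested genes and 0.0595% past the adjusted threshold. Crabp1 had the largest estimate, 0.73 ± 0.49 (SE) on the log2 scale for females over males. The male and female ratios of HT over WT had opposite signs in 4 of the 9 genes, or 44.4%, against 41.7% of all tested genes. The genotype effect did not differ between the sexes past the threshold for any of the 9 genes (adjusted p = 0.998 for each, edgeR quasi-likelihood test), where 0.0198% of all tested genes did. None of the 9 had an unadjusted p under 0.05 for that difference, against 3.55% of all tested genes. The smallest unadjusted p values were 0.0943 for Stra6, whose log2 ratio was lower by 1.23 ± 0.67 (SE) in females than in males, and 0.0997 for Crabp2, lower by 1.00 ± 0.55 (SE).

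Levels of markers of other cell types are given beside these genes. Summed CPM of 16 meningeal fibroblast markers was 247 and 210 in the male and female HT and 181 and 219 in the male and female WT. All 16 were detected, 13 had a higher estimate in HT and 3 a lower one, and their median on the log2 scale was 0.22. Their median log2 ratio was 0.5 in males and -0.04 in females. Of all 15117 tested genes, 7723 had a higher and 7394 a lower estimate. The collagen-binding protein Dcn was at 24.1 and 17.2 CPM in HT and 15.1 and 15.1 CPM in WT, and the fibroblast gene Lum at 3.3 and 1.94 CPM in HT and 1.64 and 2.04 CPM in WT. The collagen Col1a1 was at 9.51 and 11.8 CPM in HT and 8.08 and 11.3 CPM in WT. Between the females, 1 library per genotype, the marker sum was 210 CPM in HT and 219 CPM in WT, and Aldh1a2 was at 15.3 and 8.97 CPM. Aldh1a2 relative to that sum was 68.1 and 72.8 CPM per 1000 marker CPM in the male and female HT, against 51.4 and 41.0 in the male and female WT. The genotypes did not overlap on this scale, and the share of all tested genes that do so was not counted. The part of meningeal tissue in the difference of Aldh1a2 was not tested.

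Choroid plexus, the tissue that makes cerebrospinal fluid, was most visible in the male HT. Its 16 marker genes summed to 2730 and 1570 CPM in the male and female HT and 1490 and 1480 CPM in the male and female WT, with 14 higher, 2 lower and none at 0. Their median was 0.48 on the log2 scale. Most of the sum came from Ttr, at 1860 and 988 CPM in HT and 936 and 983 CPM in WT, and from Enpp2. Enpp2 was at 730 and 500 CPM in HT and 462 and 419 CPM in WT. The sum thus says little about the other markers of the list. Folr1, a folate receptor, was at 8.28 and 5.2 CPM in HT and 3.04 and 2.57 CPM in WT, and F5, coagulation factor V, was at 6.95 and 3.2 CPM in HT and 2.98 and 1.6 CPM in WT. Aldh1a2 stood at 6.16 and 9.74 CPM per 1000 choroid plexus marker CPM in the male and female HT and 6.24 and 6.06 in the male and female WT, and on that scale the genotypes overlapped. Endothelial and mural markers went the other way, with sums of 213 and 182 CPM in HT and 233 and 348 CPM in WT and all 14 estimates lower. Aldh1a3 stood at 5.09 and 7.92 CPM per 1000 of that sum in the male and female HT and 9.39 and 9.2 in the male and female WT, with no overlap. Rxra relative to the meningeal sum was 190 and 199 CPM per 1000 in HT and 213 and 150 in WT, which overlapped. Relative to the choroid plexus sum Rxra was 17.2 and 26.6 CPM per 1000 in HT and 25.9 and 22.2 in WT, which also overlapped. Relative to the endothelial and mural sum it was 220 and 229 CPM per 1000 in HT and 166 and 94.2 in WT, which did not overlap. That outcome was fixed in advance, because Rxra was higher and the sum lower in both HT libraries. The part of these tissues in the differences of Aldh1a2, Aldh1a3 and Rxra was not tested.

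The 12 markers of midbrain dopamine and brainstem catecholamine neurons summed to 227 and 187 CPM in the male and female HT and 154 and 55.0 CPM in the male and female WT. Slc6a3, the dopamine transporter, was at 34.6 and 23.8 CPM in HT, 15 CPM in the male WT and 0 counts in the female WT. Th, the rate-limiting enzyme of catecholamine synthesis, was at 57.7 and 51.5 CPM in HT and 30.7 and 19.5 CPM in WT. Of the 11 tested markers 10 had a higher and 1 a lower estimate, and Th was called (edgeR quasi-likelihood test, adjusted p = 0.0473). No gene of the table was called, Th included, with a filter of at least 1 CPM in 2 libraries, without the sex term or without the male HT. From the highest to the lowest library this marker sum had the order of Aldh1a2 and Rxra and the reverse of that of Aldh1a3. The choroid plexus sum had that order too, by 1490 against 1480 CPM in WT, and the granule cell sum had the order of Aldh1a3. The share of all tested genes in either order was not counted. Both HT values lay above both WT values in 22.1% of them and below in 22.6%. The WT values of Aldh1a2, 9.3 and 8.97 CPM, had overlapping counting intervals. The part of midbrain, brainstem, choroid plexus or granule cells in the levels of Aldh1a2, Rxra and Aldh1a3 was not tested. Aldh1a1, which also marks some dopamine neurons, spanned 324 to 346 CPM over the same libraries. The part of such neurons in its level was not tested. The sums of granule cell markers were 3900 and 4430 CPM in HT and 5170 and 5980 CPM in WT, and those of Purkinje cell markers were 4790 and 4490 CPM in HT and 5300 and 6160 CPM in WT. Sums in HT and WT were 5660 and 5370 against 5380 and 6470 CPM for astrocytes and Bergmann glia, 14100 and 13200 against 12100 and 12800 CPM for oligodendrocytes, and 144 and 105 against 111 and 115 CPM for microglia (male before female throughout).

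**Figure D3:**
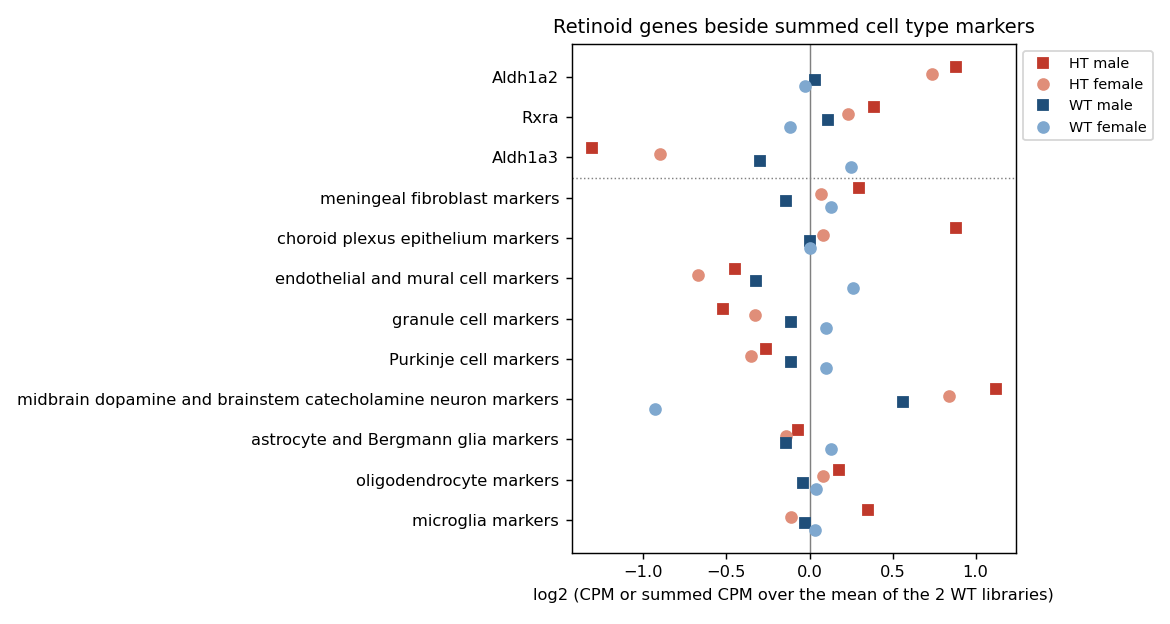
Log2 ratio of the CPM of Aldh1a2, Rxra and Aldh1a3 (above the dotted line) and of the summed CPM of each marker list (below it) in single libraries to the mean of the 2 WT libraries (horizontal axis). Aldh1a2 lies at 0.88 and 0.74 in the male and female HT, the meningeal sum at 0.30 and 0.07, and the choroid plexus sum at 0.88 and 0.08. The choroid plexus sum is mostly Ttr and Enpp2.

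The wider pathway was read from 6 lists of 59 genes in all, of which 46 passed the filter on low counts. None passed an adjusted p of 0.05. At an unadjusted p under 0.05 there were 6 higher and 2 lower in HT, where 5.22% of all tested genes were higher and 6.46% lower at that level. The median log2 fold change was -0.01 over the 46 genes, 0.02 over the 9 retinoid genes and 0.01 over all tested genes.

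Upstream of the dehydrogenases, none of the 6 tested genes of vitamin A uptake, transport and storage and none of the 10 of retinol and retinaldehyde interconversion had an unadjusted p under 0.05. Ttr, the thyroxine and retinol carrier made by the choroid plexus, was at 1860 and 988 CPM in the male and female HT and 936 and 983 CPM in the male and female WT, so the excess stood in the male HT. Rbp4, the plasma retinol carrier, was at 5.87 and 6.46 CPM in HT and 6.44 and 7.13 CPM in WT. Rdh10, which oxidises retinol to the retinaldehyde used by the ALDH1A enzymes, had a log2 fold change of -0.20 ± 0.19 (SE). Rdh5 had 0.19 ± 0.19 (SE) and Adh1, an alcohol dehydrogenase, 0.46 ± 0.49 (SE). Of the breakdown enzymes, Cyp26b1 was at 24.7 and 28.3 CPM in HT and 26.2 and 27.7 CPM in WT, with a log2 fold change of -0.02 ± 0.14 (SE). Cyp26a1, which is strongly induced by retinoic acid in many tissues, had 0 counts in all 4 libraries, which allows up to 0.146 to 0.188 CPM.

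Among the remaining receptors and the route through which FABP5 carries retinoic acid to PPARD, 2 of 5 genes had an unadjusted p under 0.05, both higher. Fabp5 was at 116 and 107 CPM in the male and female HT and 76.2 and 85.2 CPM in the male and female WT, with no overlap and a log2 fold change of 0.47 ± 0.11 (SE; edgeR quasi-likelihood test, adjusted p = 0.159). Rxrg was at 4.63 and 5.27 CPM in HT and 3.46 and 1.16 CPM in WT, with a log2 fold change of 1.22 ± 0.42 (SE; edgeR quasi-likelihood test, adjusted p = 0.325). Its lowest value was in the female WT, the library in which Slc6a3 was at 0. Rarg was at 14.6 and 15.5 CPM in HT and 17.4 and 18 CPM in WT (log2 fold change -0.23 ± 0.17, SE; edgeR quasi-likelihood test, adjusted p = 0.649).

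Of the 15 receptor coregulators, 1 was higher and 2 were lower at an unadjusted p under 0.05. Kat2b, a histone acetyltransferase that acts as a coactivator, was at 83.2 and 80.7 CPM in HT and 113 and 114 CPM in WT, with a log2 fold change of -0.47 ± 0.10 (SE; edgeR quasi-likelihood test, adjusted p = 0.156). Tbl1xr1 and Tbl1x, related subunits of the NCOR corepressor complex, had opposite estimates, -0.36 ± 0.12 and 0.36 ± 0.15 (SE). Tbl1xr1 was at 40.4 and 42.1 CPM in HT and 51.4 and 55.0 CPM in WT, and Tbl1x at 27.0 and 28.1 CPM in HT and 23.6 and 19.5 CPM in WT.

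Of the 13 tested target genes, 3 had an unadjusted p under 0.05, all higher in HT. Meis2, a homeobox factor, was at 88.9 and 81.1 CPM in the male and female HT and 71.1 and 43.7 CPM in the male and female WT (log2 fold change 0.61 ± 0.14, SE; edgeR quasi-likelihood test, adjusted p = 0.189). Drd2, the D2 dopamine receptor, was at 11.3 and 10.8 CPM in HT and 7.29 and 2.81 CPM in WT (1.25 ± 0.32, SE). Ret, a receptor tyrosine kinase for the GDNF family, had 0.25 ± 0.11 (SE). Drd2 and Ret are also expressed by midbrain dopamine neurons, whose marker sum ordered the 4 libraries as all 3 of these genes did. The choroid plexus sum gave the same order. Both HT values lay above both WT values in 22.1% of all tested genes, and the share in the full order was not counted. The part of midbrain, brainstem or choroid plexus tissue in the levels of Meis2, Drd2 and Ret was not tested. Dhrs3, a retinaldehyde reductase induced by retinoic acid, was at 22.5 and 22.6 CPM in HT and 22.5 and 22.7 CPM in WT, and was named after its values were seen.

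**Figure D4:**
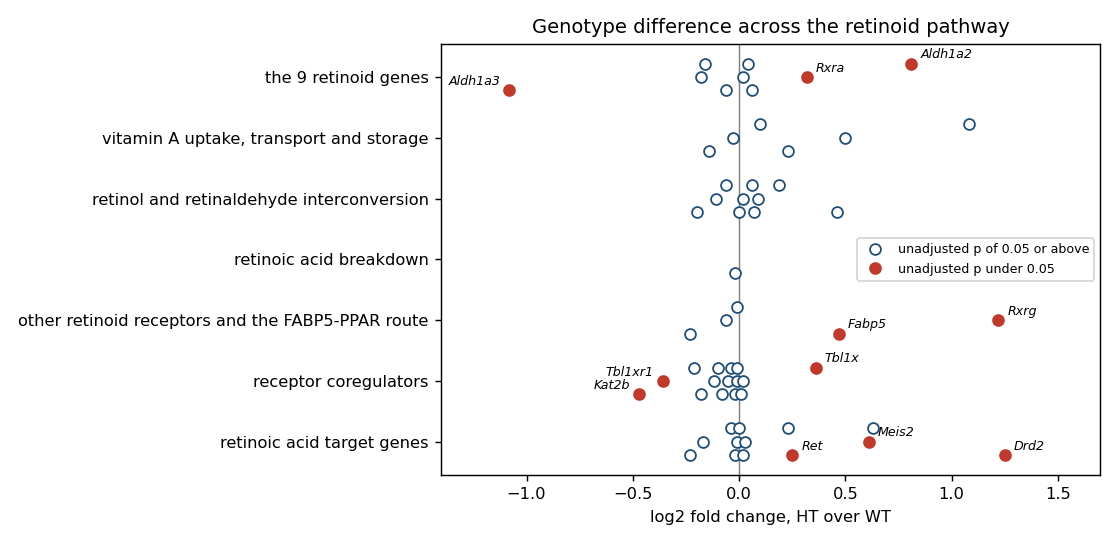
Log2 fold change of HT over WT (horizontal axis) for each tested gene of the 9 retinoid genes and of 6 lists of the wider pathway. Filled points have an unadjusted p under 0.05 and carry their names, and no point passed an adjusted p of 0.05. Medians lie between -0.05 for the receptor coregulators and 0.16 for vitamin A uptake, transport and storage.

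The genes whose profile over the 4 libraries came nearest to each of the more variable retinoid genes were listed from 14232 genes with a mean of at least 1 CPM, by the root mean square distance of centred log2 CPM. For Aldh1a2, added after its values were seen, these were Tmem215 (0.03), Myo5b (0.04) and Steap3 (0.05). Myo5b, a myosin motor, was at 10.7 and 9.28 CPM in HT and 6.02 and 5.48 CPM in WT. For Aldh1a3 they were AU021092 (0.06), A3galt2 (0.08) and Magix (0.08). For Stra6 they were Siglech (0.03), Slc25a21 (0.04) and Rpl14-ps1 (0.06), and for Crabp1 they were LOC100504703 (0.02), Adat3 (0.04) and Cdk5rap1 (0.06). No retinoid gene stood among the nearest 3 of another. With 3 places for 14232 genes, that does not tell whether the retinoid genes vary together.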

How the data were processed

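Poly(A) RNA from micro-dissected cerebellum was made into stranded libraries and read from 1 end over 100 bases, per the labels' protocols. The authors deposited raw counts, whole numbers by gene symbol for each library. The submitters' processing notes name STAR, featureCounts, FastQC, edgeR and the mm9 build, but no version or setting.

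Genes were kept with filterByExpr by genotype (15117 of 24015, 99.9% of counts), and scaled by TMM (factors 0.999 to 1.00). Genes were then fitted in edgeR 4.0.16 (R 4.3.3) by robust quasi-likelihood on sex plus genotype (residual df 1). Two-sided p-values got a Benjamini-Hochberg adjustment across the 15117 genes. The SE is the log2 fold change divided by the square root of F. The difference between the sexes in genotype effect was tested as an interaction, fitted beside genotype without a sex term. Log2 ratios within a sex, untested, added a prior count of 2.

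The genes, lists, tests and alternatives were chosen with earlier results of these data known, and groups came from the labels. The rule for named genes took the 9 retinoid genes, up to 3 genes of smallest p per pathway list with a mean of at least 1 CPM, Arid1b, the leading genes of marker lists, and the nearest 3 profiles of retinoid genes whose range was at least 1 on the log2 scale. A gene that this rule names is not reported here. Exon lengths and shared sequence came from GENCODE M21 on GRCm38. Scripts were tested on simulated data. Alternatives used DESeq2 1.42.0, limma-voom (limma 3.58.1), edgeR's likelihood ratio test, other scalings and filters, no sex term, other prior counts (0.5 and 5) and each library left out, with genotype then the only term.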

Additional observations from a re-analysis of the deposited data

Results flagged for a closer look

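For 4 of the 9 retinoid genes, or 44.4%, the male and the female pair of libraries lay on opposite sides, where 41.7% of all tested genes did. Stra6 had a log2 ratio of HT over WT of 0.40 in males and -0.82 in females. Crabp2 had 0.52 in males and -0.47 in females. Crabp1 had 0.25 in males and -0.31 in females, from 12 to 31 counts per library. Rarb had -0.33 in males and 0.02 in females. Each ratio rests on 1 library per genotype, and the test of the difference between the sexes passed for none of them (edgeR quasi-likelihood test, adjusted p = 0.998 for each). With 2 libraries per genotype no sample could be tested as standing apart from its group.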

How the results depend on the processing

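The labels give no replicate numbers, and sex, which matches 1 library of each genotype to 1 of the other, is already a term of the fit. The number of genes called for genotype over the whole table was 3, and it was 7 with DESeq2's size factors, 13 with library totals, 553 with no low-count filter, 0 with at least 1 CPM in 2 libraries, 33 with DESeq2, 166 with the likelihood ratio test, 0 without the sex term, 7 at an adjusted p of 0.1, and 0 without the male HT, 3 without the female HT, 2730 without the male WT and 658 without the female WT. The number of retinoid genes called was 0, and it was 1 (Aldh1a2) with no low-count filter (adjusted p = 0.00723) and with the likelihood ratio test (adjusted p = 0.0434), and with a library left out 0 to 3 (3 without the male WT, 1 without the female WT). DESeq2 gave Aldh1a2 an unadjusted p of 0.011 and no adjusted p. Aldh1a1, Aldh1a2, Aldh1a3 and Rxra kept their direction in all 12 alternatives, with log2 fold changes of 0.02 to 0.09, 0.75 to 0.87, -1.35 to -0.80 and 0.20 to 0.44. Directions turned for Crabp2 with limma-voom (-0.02) and without the sex term (-0.04), and with a library left out for Stra6 (-0.74 to 0.29), Crabp1 (-0.54 to 0.49), Crabp2 (-0.39 to 0.45), Rara (-0.04 to 0.10) and Rarb (-0.36 to 0.04). The cause was not tested. Other prior counts turned 0 of 36 ratios within a sex. For sex and for its difference in genotype effect, added after seeing the data, 0 retinoid genes were called under every alternative run. At 12 to 31 counts, Crabp1 is limited by depth.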
